A study of Mus musculus with 20 samples.

Results

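The genes described here are 33 listed targets and regulators of the tumour suppressor p53, followed in the livers of 20 mice across genotype and diet. A member was measured where the annotation of the Affymetrix array gave at least 1 probe set (a set of short probes against one transcript) that symbol alone. In all, 29 members had such a probe set, with 51 probe sets between them, out of 17097 genes and 28898 probe sets with a single symbol. The other 4, Trp53 itself, Bax, Gdf15 and Fdxr, had none in that annotation and were not analysed here. Each gene was represented by its brightest probe set, and the further probe sets are described where they differ.

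Progeroid mice carried the genotype Ercc1Δ/-, obtained from Ercc1Δ/+ and Ercc1+/- parents, and wild type littermates served as controls. Every mouse was an F1 hybrid of C57BL6J and FVB, was 11 weeks old and ate the synthetic diet AIN93G. The wild type and the progeroid animals each comprised 5 fed the control amount and 5 under diet restriction, which began with 10% less food at 7 weeks and came to 30% at 9 weeks of age. Both Ercc1 alleles are germline alleles rather than liver-specific ones, the sex of the mice and the hour of sampling are not given, and whole liver was used, so that a change in the number of a cell type and a change of RNA per cell cannot be told apart.

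p53 is a transcription factor that is held at a low level by the ubiquitin ligase Mdm2 and is stabilised when DNA is damaged. It then activates genes that halt the cell cycle, genes that promote cell death, and genes of repair and metabolism, and among its targets are its own inhibitors, which closes a feedback loop. Ercc1 encodes a subunit of a nuclease that removes bulky lesions and crosslinks from DNA, so the comparisons ask how the p53 target genes stand in livers with that defect, and what restricted food does to them in each genotype. Several of the members, among them Ddit4, Gadd45a, Btg2, Sesn2 and Plk3, are also known to respond to signals that do not pass through p53.

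p53 binds pairs of a 10-letter element, here called the p53 decamer. Promoter windows from 250 bases before to 50 bases after a transcription start were available from RefSeq (build GRCm38.p6) for 27 of the 33 members, 23 of them measured. A strict match to the p53 decamer, on either strand, was present in a window of 12 of these 27 genes (44.4%) and of 2582 of 27025 genes in all (9.55%). Of the 13 members with a window that were higher in progeroid livers on the control diet 7 held a match, and among the 10 measured members that were not called there 3 held one. A pair of decamers with a spacer of 0 to 13 bases was found in Cdkn1a alone among the members, and in 20 of all 27025 genes. The matches that lie before the start in members higher in progeroid livers are shown with the decamer in capitals, written 5′ to 3′ on the strand of the gene, so that the sites can be set beside the values that follow.
Cdkn1a: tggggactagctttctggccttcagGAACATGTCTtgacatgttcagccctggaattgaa
Ckap2: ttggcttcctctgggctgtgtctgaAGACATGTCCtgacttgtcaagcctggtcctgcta
Mdm2: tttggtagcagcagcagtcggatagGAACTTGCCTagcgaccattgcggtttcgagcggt
Ccng1: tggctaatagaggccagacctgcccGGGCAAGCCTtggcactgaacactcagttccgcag
Gadd45a: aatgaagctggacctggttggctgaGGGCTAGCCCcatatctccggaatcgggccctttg
Polk: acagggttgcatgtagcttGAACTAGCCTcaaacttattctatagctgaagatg

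The Cdkn1a sequence lies at chr17:29090903-29090962 on the plus strand, with its decamer at -51 to -42 from the upstream one of 2 RefSeq starts, and the other site of the pair, GGACTAGCTT, lies at -73 to -64. The Ckap2 sequence is at chr8:22185988-22186047 (minus strand, decamer at -203 to -194) and the Mdm2 sequence at chr10:117710910-117710969 (minus strand, -186 to -177). The sequence of Ccng1 is at chr11:40755437-40755496 (minus strand, -185 to -176), that of Gadd45a at chr6:67037413-67037472 (minus strand, -40 to -31) and that of Polk at chr13:96519384-96519437 (minus strand, -231 to -222). The match of Aen lies within the stretch transcribed from one of its starts and is not shown. The letters of the cell cycle element CHR (TTTGAA or TTCGAA, either strand) were present in 8 of 27 members, among them Ckap2 and Psrc1, and in 21.7% of all genes with a window. The E2F-like letters TTTCCCGC, TTTGGCGC, TTTCGCGC or TTTGCCGC were present in 0 of 27 members and in 2.6% of all genes. A match describes letters only, and sites in introns or farther upstream lie outside these windows.

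All levels below are deposited log2 values, on which a difference of 1 is a doubling, and differences between genes in level are not compared because probes differ in brightness. The arrays had medians between 4.17 and 4.21 and correlated with one another between 0.979 and 0.997 across genes. Ercc1 was between 5.14 and 5.55 in progeroid control mice and between 6.44 and 6.62 in wild type control mice, and between 4.49 and 5.08 against 6.04 and 6.36 on restriction. Alb, the albumin gene of hepatocytes, was between 14.23 and 14.40 on every array. The 23 nonspecific probe sets of the array, which show its background, had means from 2.40 to 5.89 (median 2.89), and 8 of the 29 members had a mean under 5 over the 20 arrays, where this scale understates folds. These were Pmaip1, Phlda3, Eda2r, Psrc1, Ckap2, Dram1, Gtse1 and Tnfrsf10b, which lie within the range of the background probe sets. Apaf1 (mean 5.35) and Sesn2 (5.73) also lie within that range, as do the wild type control means of Cdkn1a (5.70) and Gadd45a (5.76). Differences were tested two-sided with limma, adjusting over all 17097 genes by Benjamini-Hochberg, and "rose" or "fell" means an adjusted p below 0.05.

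On the control diet 15 of the measured p53 targets were higher in progeroid than in wild type livers. By assigned role, 5 of 7 feedback genes and modifiers rose, and 5 of 7 genes of cell cycle arrest and growth. So did 4 of 10 genes of cell death and 1 of 5 genes of repair, metabolism and growth signalling. The nuclease Aen was counted with the feedback genes and modifiers, and the spindle genes Ckap2 and Psrc1 with arrest and growth. Of the 29 measured members 15 rose and 0 fell, with 14 not past the threshold, where 6.7% of all genes rose and 4.32% fell. The median log2 difference was 0.42 over the members and -0.01 over all genes. The groups did not overlap for 10 of the members, all of them higher in progeroid mice, which was so for 5.4% of all genes, and 3.95% lay apart in the other direction. With an unadjusted p under 0.05 there were 17 members higher and 1 lower, and 24.3% of all genes had such a p.

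**Figure D1:**
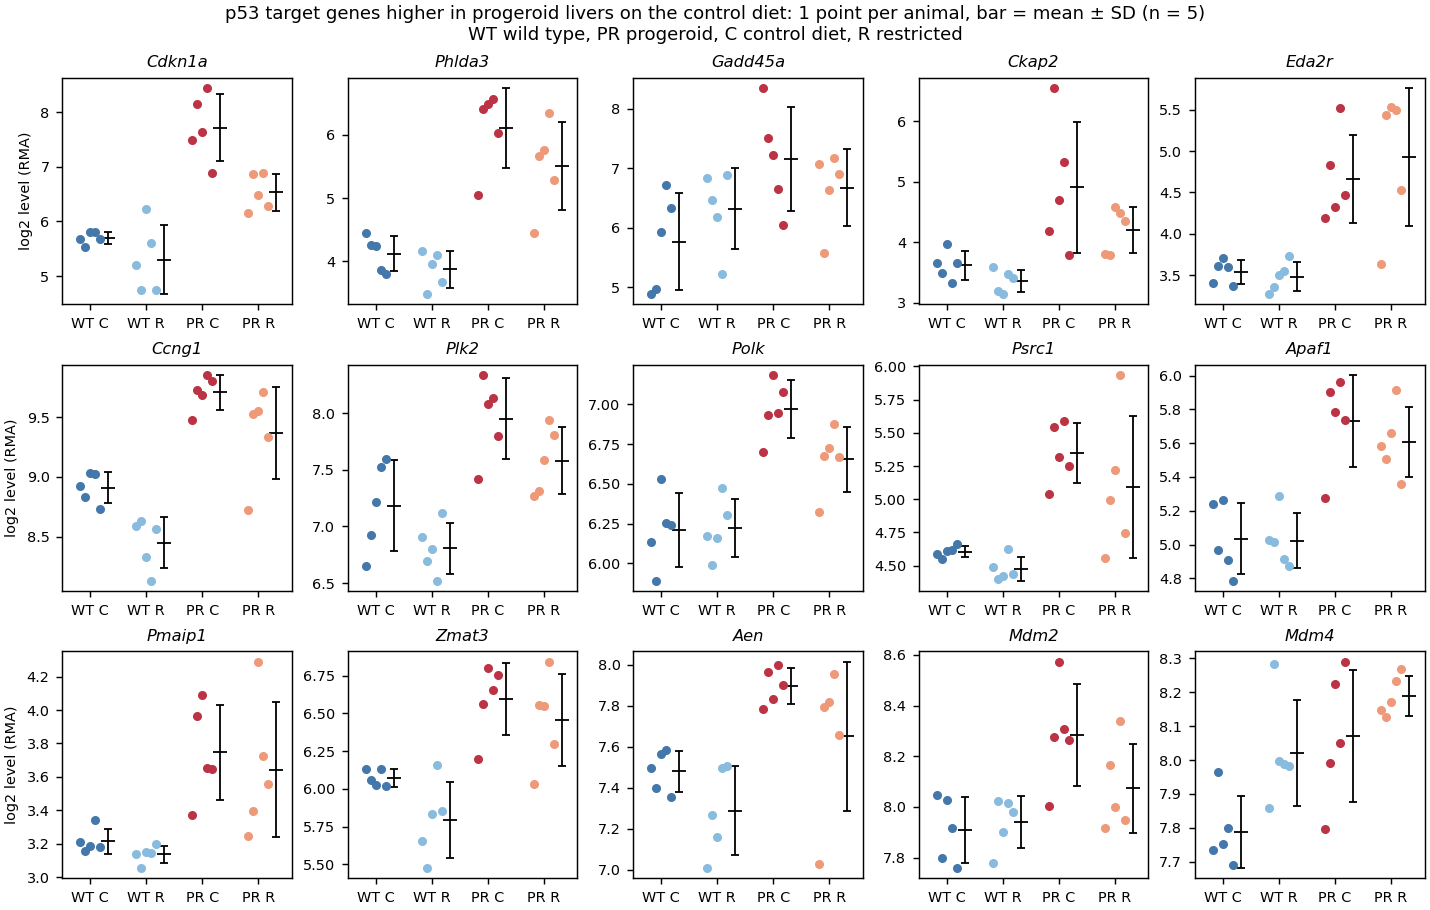
Log2 level (vertical axis) of the 15 p53 target genes that rose in progeroid livers on the control diet, 1 point per animal, in wild type (WT) and progeroid (PR) mice on control (C) or restricted (R) diet; black bars are mean ± SD of 5 animals. Vertical ranges differ between panels. In Cdkn1a the progeroid control points (6.88 to 8.44) lie above every wild type point, and in Mdm4 the 4 groups lie between 7.69 and 8.29.

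Among the genes of cell cycle arrest and growth 5 of 7 rose. Cdkn1a, which encodes the cyclin-dependent kinase inhibitor p21, was 5.68, 5.54, 5.80, 5.81 and 5.68 in the wild type control mice and 7.49, 8.15, 7.64, 8.44 and 6.88 in the progeroid control mice. The lowest progeroid value was above the highest wild type value, and the log2 difference was 2.02 ± 0.27 (SE; adjusted p = 3.86e-05). Its second probe set rose by 1.84 ± 0.32. Gadd45a, a growth arrest protein, ranged from 4.88 to 6.71 in wild type and from 6.05 to 8.35 in progeroid mice, with overlap, and rose by 1.39 ± 0.43 (adjusted p = 0.0393). These are wide spreads, with SDs of 0.82 and 0.87. Ckap2, a protein of the mitotic spindle, was 3.33 to 3.97 in wild type and 3.79, 4.18, 4.71, 5.33 and 6.55 in progeroid mice (SD 1.08), and rose by 1.29 ± 0.34 (adjusted p = 0.0149). A fit to only these 2 groups gave Ckap2 an adjusted p of 0.0724. Psrc1, which binds spindle microtubules, rose by 0.74 ± 0.17, but its 2 dimmer probe sets gave 0.06 and -0.10 and did not pass, and the mean of the 3 gave 0.23 (adjusted p = 0.0859). Plk2, a polo-like kinase, rose by 0.77 ± 0.19. Btg2, an antiproliferative factor, gave 0.89 ± 0.31 (adjusted p = 0.0702) at its brightest probe set and did not pass, whereas its other probe set rose by 1.07 ± 0.27 (adjusted p = 0.0165 over all probe sets). The brightest probe set did pass without animal 327 or 404 (adjusted p = 0.0419 and 0.00399). Plk3 gave -0.46 ± 0.37 and did not pass.

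Of the genes grouped here as feedback and modifiers of p53, a group that also holds the nuclease Aen, 5 of 7 rose. Ccng1, a cyclin that acts with a phosphatase on Mdm2, was between 8.73 and 9.03 in wild type and between 9.48 and 9.85 in progeroid mice. The groups were apart, the difference was 0.80 ± 0.14 (adjusted p = 0.000693), and both other probe sets rose by 0.78 and 0.83. Mdm2 ranged from 7.76 to 8.05 in wild type and from 8.01 to 8.57 in progeroid mice, so that 1 progeroid animal, 321, fell among the wild type values, and the difference was 0.38 ± 0.10 (adjusted p = 0.0142). Its second probe set rose by 0.54 ± 0.14. Mdm4, the relative of Mdm2 that blocks p53 at its promoters, rose by 0.28 ± 0.09 (adjusted p = 0.0421) at its brightest probe set, while the other 3 gave values between -0.004 and 0.076. Zmat3, a zinc finger protein that binds RNA, rose by 0.52 ± 0.14, and the nuclease Aen by 0.42 ± 0.13 (adjusted p = 0.045), with its 2 dimmer probe sets at 0.14 and 0.06. Trp53inp1, a cofactor of p53, gave 0.07 ± 0.15 and Gtse1, which moves p53 out of the nucleus, 0.02 ± 0.10, and neither passed.

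Of the genes of cell death 4 of 10 rose. Phlda3, an inhibitor of the survival kinase AKT, was 4.44, 4.26, 4.24, 3.86 and 3.80 in wild type and 5.05, 6.40, 6.49, 6.57 and 6.03 in progeroid mice. The groups were apart, with animal 321 the lowest of its group, and the difference was 1.99 ± 0.29 (adjusted p = 9.95e-05). Eda2r, a receptor of the tumour necrosis factor family, was between 3.37 and 3.72 in wild type and between 4.19 and 5.51 in progeroid mice and rose by 1.13 ± 0.29. Apaf1, the scaffold of the apoptosome, rose by 0.70 ± 0.13 (adjusted p = 0.00098), and its dim second probe set gave 0.14. Pmaip1, which encodes the BH3-only protein NOXA, rose by 0.53 ± 0.15, from wild type values of 3.15 to 3.34, which lie within the range of the background probe sets. Bbc3, which encodes the BH3-only protein PUMA, gave 0.52 ± 0.28 with wild type values spread from 5.50 to 7.39. Perp (-0.16 ± 0.07), Ei24 (-0.09 ± 0.07) and the death receptors Fas (0.11 ± 0.09) and Tnfrsf10b (-0.11 ± 0.08) did not pass, nor did the autophagy gene Dram1 (0.18 ± 0.10).

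Of the 5 measured genes of repair, metabolism and growth signalling, Polk alone rose. This gene encodes a polymerase that copies past DNA lesions. It was between 5.89 and 6.53 in wild type and between 6.70 and 7.19 in progeroid mice, which did not overlap, and rose by 0.76 ± 0.12 (adjusted p = 0.000225), while its dimmer probe set gave 0.13. Rrm2b, the p53-induced subunit of ribonucleotide reductase, gave 0.07 ± 0.11. The restrainers of the growth kinase complex mTORC1 gave 0.34 ± 0.16 for Sesn1, 0.14 ± 0.11 for Sesn2 and -0.62 ± 0.43 for Ddit4, and none of them passed. Their 95% intervals ran from 0.02 to 0.67, from -0.09 to 0.37 and from -1.51 to 0.27. A second probe set of Sesn1 passed, at 0.50 ± 0.15 (adjusted p = 0.0413 over all probe sets), and the remaining one gave 0.17.

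Over all probe sets tested together, 18 of the 51 member probe sets rose and 0 fell, beside 3.98% and 2.96% of all probe sets. The brightest probe sets of Aen (adjusted p = 0.0609) and Mdm4 (0.0571) did not pass in that larger family. With the brightest probe sets, the call of Aen was lost without any 1 of 13 animals (321, 323, 325, 326, 327, 365, 369, 401, 402, 403, 404, 405 or 422; adjusted p 0.0507 to 0.095) and that of Mdm4 without any 1 of 10 (323, 325, 326, 327, 366, 401, 403, 404, 405 or 425; 0.0503 to 0.116). Gadd45a lost it without 321, 323, 325, 401, 402 or 403 (0.0549 to 0.111) and Pmaip1 without 323 or 325 (0.0612 and 0.0621). With the RNA integrity covariate Mdm4 (0.19, adjusted p = 0.264), Gadd45a (1.37, 0.115) and Aen (0.44, 0.0973) missed the threshold.

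**Figure D2:**
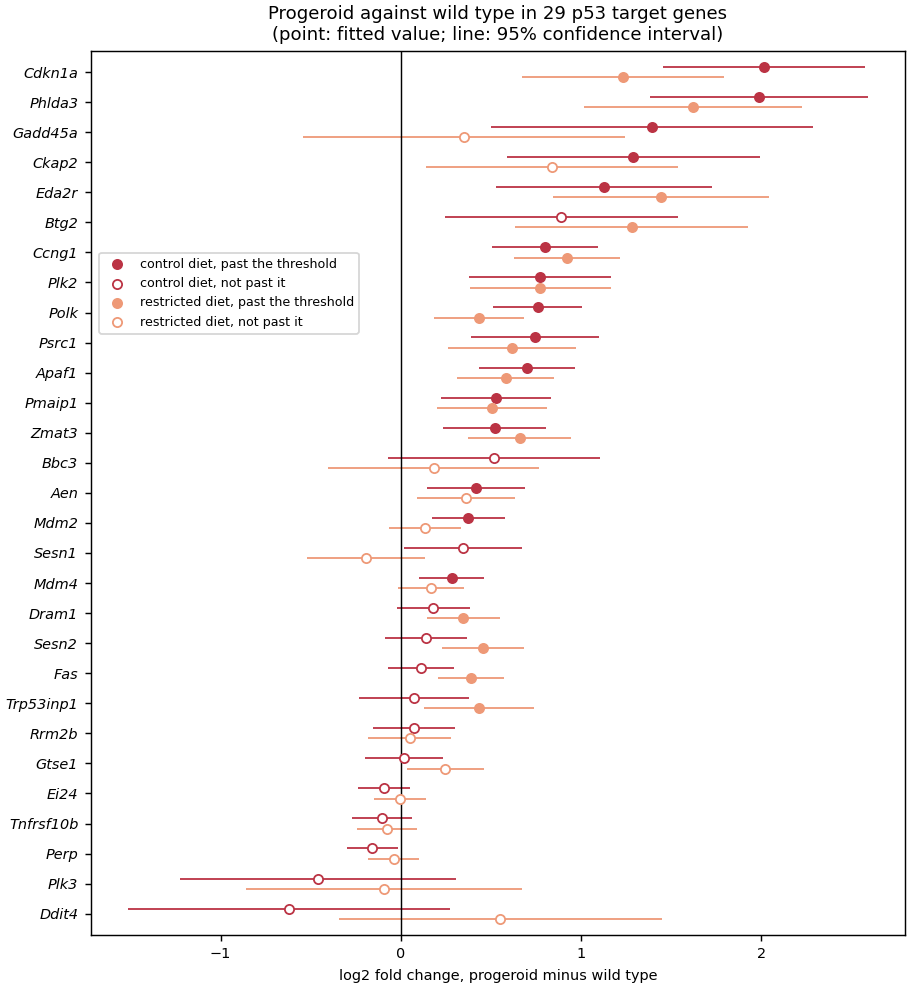
Log2 fold change of progeroid over wild type (horizontal axis) for the 29 measured p53 target genes on the control and the restricted diet; points are fitted values, lines 95% confidence intervals, and filled points passed the threshold. On each diet 15 genes lie to the right as filled points and 0 lie to the left as filled points.

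On restricted food the same comparison again gave 15 members higher in progeroid livers, 0 lower and 14 not past the threshold, where 11.8% of all genes rose and 5.44% fell. The median difference was 0.43 over the members and 0.00 over all genes, and 8 members had groups that did not overlap, all higher, which was so for 7.95% of all genes, beside 3.94% in the other direction. Over probe sets 19 of 51 were higher and 0 lower, beside 7.07% and 4.42% of all probe sets. The 2 genotype comparisons share no animals, but both were taken from one fit with one estimate of the spread per gene. Their calls are therefore not fully independent. The 2 comparisons had 10 members in common: Cdkn1a, Ccng1, Pmaip1, Phlda3, Eda2r, Zmat3, Plk2, Polk, Psrc1 and Apaf1, which is 66.7% of each list of 15. How many of all genes passed on both diets was not counted, so this share has nothing to be set beside.

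Cdkn1a was 5.20, 4.74, 6.24, 5.60 and 4.74 in restricted wild type mice and 6.15, 6.87, 6.49, 6.88 and 6.28 in restricted progeroid mice. One wild type animal, 423, lay above the lowest progeroid animal, 362, and the difference was 1.23 ± 0.27 (adjusted p = 0.00282). Phlda3 was between 3.48 and 4.17 in wild type and between 4.46 and 6.34 in progeroid mice, with no overlap, and was higher by 1.62 ± 0.29. Eda2r was higher by 1.44 ± 0.29, with animal 362 at 3.64 among the wild type values (3.27 to 3.73) and the other 4 progeroid animals between 4.53 and 5.53. Ccng1 was higher by 0.92 ± 0.14 and did not overlap, although animal 362 (8.72) was close to the wild type values (8.13 to 8.63). Zmat3 (0.66 ± 0.14), Plk2 (0.78 ± 0.19), Psrc1 (0.62 ± 0.17; 0.18 as the mean of its probe sets, adjusted p = 0.168), Apaf1 (0.58 ± 0.13), Pmaip1 (0.51 ± 0.15) and Polk (0.43 ± 0.12) completed the members that passed on both diets.

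Past the threshold on restriction, but not on the control diet, were Btg2, Sesn2, Trp53inp1, Fas and Dram1. Btg2 was 7.87, 8.71, 7.73, 7.85 and 7.79 in restricted wild type and 9.57, 9.39, 8.65, 9.40 and 9.34 in restricted progeroid mice, higher by 1.28 ± 0.31 (adjusted p = 0.00622), with animals 422 and 366 overlapping. Sesn2 (0.46 ± 0.11, and 0.53 at its second probe set) and the death receptor Fas (0.39 ± 0.09) were higher with no overlap, and Trp53inp1 (0.43 ± 0.15, but 0.16 at its second probe set) and Dram1 (0.35 ± 0.10) with overlap. Mdm2 (0.13 ± 0.10), Mdm4 (0.17 ± 0.09), Aen (0.36 ± 0.13), Gadd45a (0.35 ± 0.43) and Ckap2 (0.84 ± 0.34) were positive but did not pass. The groups of Ckap2 did not overlap, however. Ckap2 did pass in a fit to only the groups compared (adjusted p = 0.00414) and with the RNA integrity covariate (0.0427). Aen passed as the mean of its probe sets (adjusted p = 0.0381) and without animal 362 (0.000657), among other alternatives. The call of Trp53inp1 was lost without any 1 of 14 animals (325, 326, 327, 365, 366, 368, 369, 403, 405, 421, 422, 423, 424 or 425; adjusted p 0.0503 to 0.135), that of Dram1 without 366 or 424 (0.0515 and 0.0581), that of Pmaip1 without 366 (0.0524) and that of Polk without 368 (0.0504).

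**Figure D3:**
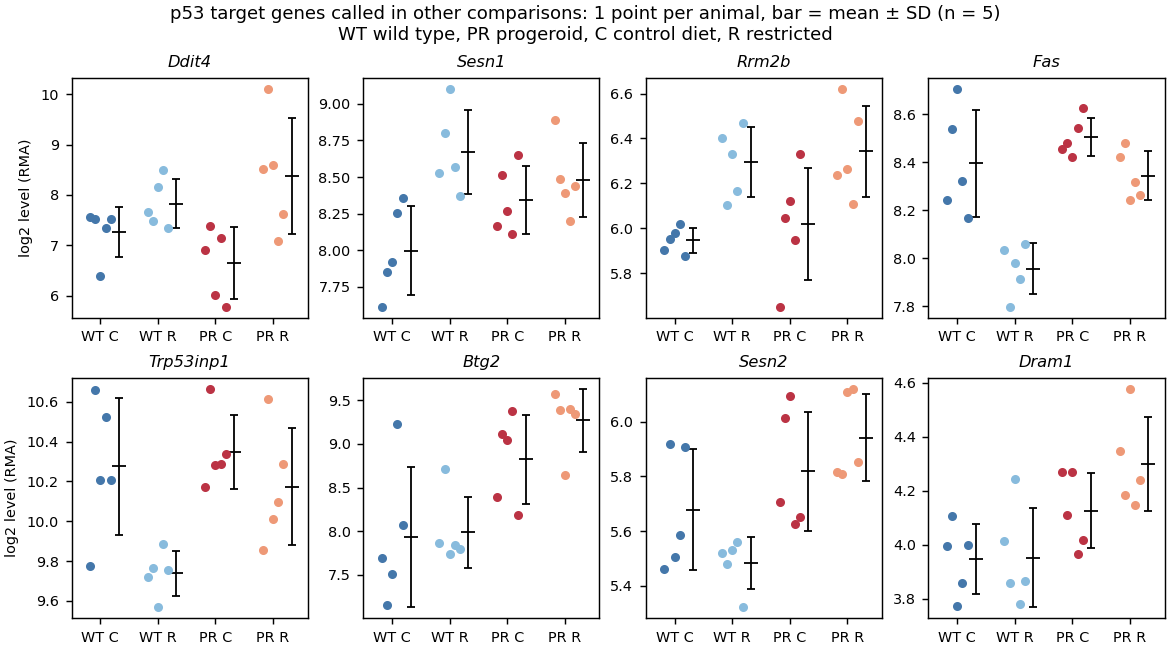
Log2 level (vertical axis) of 8 p53 target genes that passed the threshold in a comparison other than the genotype effect on the control diet, 1 point per animal, in wild type (WT) and progeroid (PR) mice on control (C) or restricted (R) diet; black bars are mean ± SD of 5 animals. Fas and Trp53inp1 are lowest in the restricted wild type group, and Ddit4 reaches 10.10 in 1 restricted progeroid animal.

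Diet restriction moved few members past the threshold within either genotype, and in neither direction was their share above that of all genes. The member shares were 3.45% up and 3.45% down in progeroid livers, and 6.9% and 10.3% in wild type livers. In progeroid livers 1 member rose and 1 fell of 29, beside 6.94% of all genes that rose and 5.07% that fell, and the median difference was -0.13 over the members and -0.01 over all genes. Cdkn1a fell by 1.18 ± 0.27 (adjusted p = 0.0064), from 6.88 to 8.44 on the control diet to 6.15 to 6.88 on restriction. The groups just failed to overlap, since the highest restricted and the lowest control animal both round to 6.88. Groups lay apart in this comparison for 5.19% of all genes upward and 3.78% downward. The second probe set of Cdkn1a fell by 1.28 ± 0.32. Ddit4 was 6.90, 7.39, 6.01, 7.15 and 5.78 on the control diet and 8.52, 10.10, 8.60, 7.09 and 7.62 on restriction, with overlap through animal 368, and rose by 1.74 ± 0.43 (adjusted p = 0.0111). The remaining members were not past the threshold, among them Phlda3 (-0.61 ± 0.29), Ckap2 (-0.71 ± 0.34), Polk (-0.31 ± 0.12), Ccng1 (-0.34 ± 0.14) and Rrm2b (0.32 ± 0.11). One further probe set of Rrm2b did rise, by 0.39 ± 0.11. Over probe sets 2 of 51 rose and 2 fell, beside 4.81% and 3.44% of all probe sets. With an unadjusted p under 0.05, 6 members were lower and 2 higher, and 25.2% of all genes had such a p.

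In wild type livers 2 members rose and 3 fell, beside 9.92% and 12.6% of all genes, with a median difference of -0.08 over the members and -0.03 over all genes. Sesn1, a restrainer of mTORC1, was between 7.61 and 8.36 on the control diet and between 8.37 and 9.10 on restriction and rose by 0.67 ± 0.16 (adjusted p = 0.00367), as did both of its other probe sets (0.79 and 0.58). Rrm2b rose by 0.35 ± 0.11 (adjusted p = 0.0259), from 5.88 to 6.02 on the control diet to 6.10 to 6.47 on restriction, with no overlap, and of its other 3 probe sets 2 rose (0.43 and 0.44) and 1 gave 0.15. Fas fell by 0.44 ± 0.09 (adjusted p = 0.00105), from between 8.17 and 8.71 to between 7.80 and 8.06. Trp53inp1 fell by 0.54 ± 0.15, with its second probe set at -0.13 and not past the threshold. Ccng1 fell by 0.46 ± 0.14 (adjusted p = 0.0227) with no overlap, while its other probe sets gave -0.01 and -0.38. Aen did not pass at its brightest probe set (-0.19 ± 0.13), but a dimmer one fell by 0.59 ± 0.17. Groups lay apart for 6.9% of all genes upward and 8.77% downward. Over probe sets 6 of 51 rose and 4 fell, beside 9.88% and 9.09% of all probe sets. The call of Ccng1 was lost without 403, 404, 423 or 424 (adjusted p 0.0527 to 0.0675) and that of Rrm2b without 401, 405, 421, 423 or 425 (0.052 to 0.0724). Cdkn1a gave -0.40 ± 0.27 in wild type mice and did not pass.

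**Figure D4:**
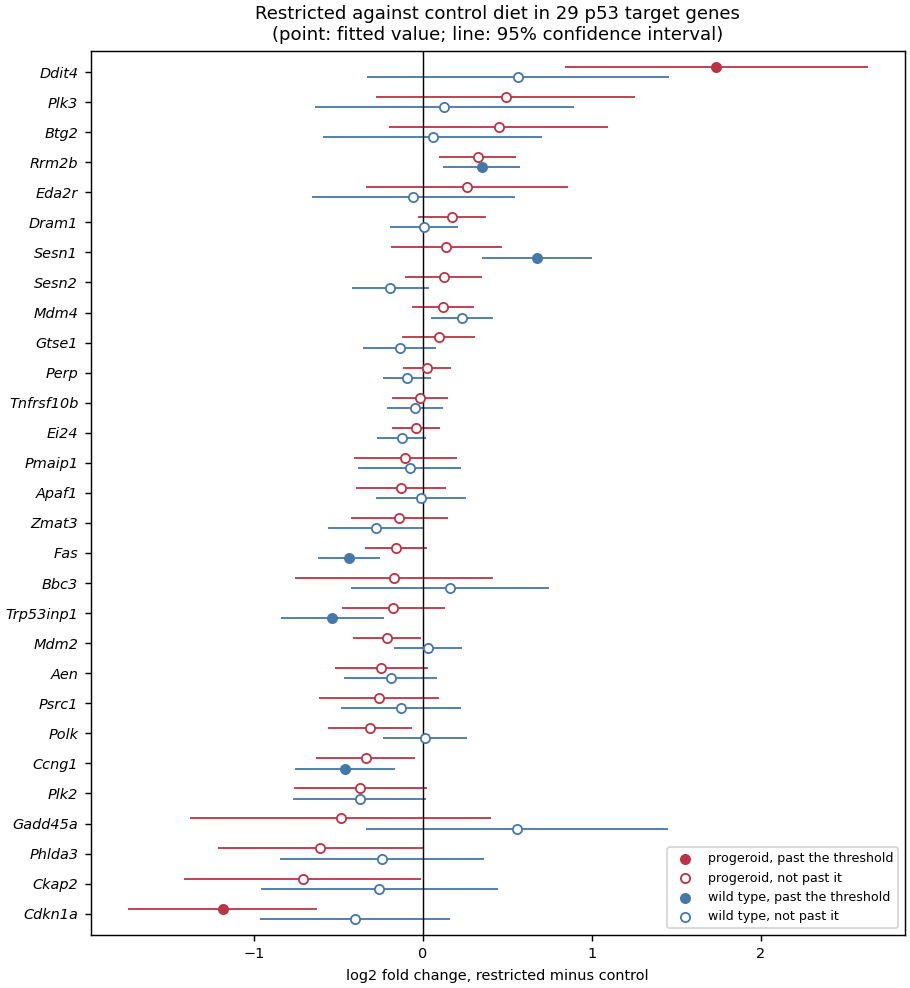
Log2 fold change of restricted over control diet (horizontal axis) for the 29 measured p53 target genes in progeroid and in wild type livers; points are fitted values, lines 95% confidence intervals, and filled points passed the threshold. In progeroid livers the filled points are Ddit4 and Cdkn1a, at opposite ends of the plot.

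Whether a member answered restriction differently in the 2 genotypes was tested directly, as the difference of the diet effects, which equals the difference of the genotype effects. None of the 29 members passed in limma (0 higher, 0 lower, lowest adjusted p 0.266), where 1.4% of all genes passed, 1.03% upward and 0.374% downward. Over probe sets it was 0 of 51, beside 0.506% and 0.271%. With an unadjusted p under 0.05 there were 2 members, Sesn1 (-0.54 ± 0.22) and Fas (0.28 ± 0.12), while 14.2% of all genes had such a p. For Cdkn1a the difference was -0.78 ± 0.38 with a 95% interval from -1.58 to 0.01, and for Ddit4 it was 1.17 ± 0.61 with an interval from -0.09 to 2.44. The diet effect on Cdkn1a was thus not shown to differ between genotypes, nor were the members past the threshold on 1 diet shown to differ between diets.

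Restricted progeroid livers were also set against freely fed wild type livers, a comparison in which genotype and diet differ together. Here 14 members were higher and 0 lower, beside 13.9% and 11.5% of all genes, and the median was 0.40 over the members and -0.03 over all genes. Phlda3 (1.38 ± 0.29), Eda2r (1.39 ± 0.29) and Btg2 (1.34 ± 0.31) were the members furthest above among those that passed, followed by Cdkn1a at 0.83 ± 0.27 (adjusted p = 0.0275), whose 2 groups did not overlap. The second probe set of Cdkn1a gave 0.56 ± 0.32 and did not pass (adjusted p = 0.245 over all probe sets), nor did the mean of both (0.70, adjusted p = 0.092). Ddit4 (1.12 ± 0.43) and Gadd45a (0.91 ± 0.43) had larger values than Cdkn1a but did not pass. Groups lay apart for 6 members, all higher, and for 10.6% of all genes upward and 8.24% downward. Over probe sets 19 of 51 were higher and 0 lower, beside 10.3% and 8.98%. The others were Apaf1, Psrc1, Sesn1, Ccng1, Polk, Pmaip1, Mdm4, Rrm2b, Zmat3 and Dram1, between 0.35 and 0.57. Of these, Sesn1 and Rrm2b had not passed for genotype on either diet at their brightest probe sets. Both rose with restriction in wild type livers (0.67 and 0.35). This comparison shares arrays with the genotype effects on both diets and with both diet effects. Calls lost without 1 animal were those of Cdkn1a (365, 368 or 402; adjusted p 0.0596 to 0.0688), Ccng1 (365, 366, 368 or 405; 0.0519 to 0.0655), Sesn1 (362, 401, 402 or 403; 0.056 to 0.0837), Pmaip1 (366, 368, 369, 401, 402, 403 or 405; 0.0501 to 0.106), Psrc1 (365, 366, 368, 401, 402, 403, 404 or 405; 0.0532 to 0.0969) and Zmat3 (12 animals; 0.0524 to 0.136).

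Within the progeroid groups the members tended to be low or high in the same animals. Taking the 15 members that rose on the control diet, animal 321 was the lowest of the 5 progeroid control mice for 12 of them and animal 326 the highest for 7. Among restricted progeroid mice animal 362 was the lowest for 11 of the 15 and animal 368 the highest for 11. In wild type mice the ranks were more mixed. Animal 405 was lowest for 8 and highest for 2 on the control diet, and animal 422 lowest for 5 and highest for 3 on restriction. The exceptions in animal 321 were Cdkn1a, Ckap2 and Gadd45a, and for Gadd45a it had the highest value of all 20 mice (8.35). The exceptions in animal 362 were Apaf1, Ckap2, Gadd45a and Mdm4. This is a description of 15 genes in the same arrays and carries no test. Ranks of the animals over all genes were not counted. Without animals 321 and 362 together, chosen after seeing these values, 14 members rose on the control diet and 17 on the restricted diet, while the genes called in either direction went from 1883 to 1781 and from 2948 to 3272.

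**Figure D5:**
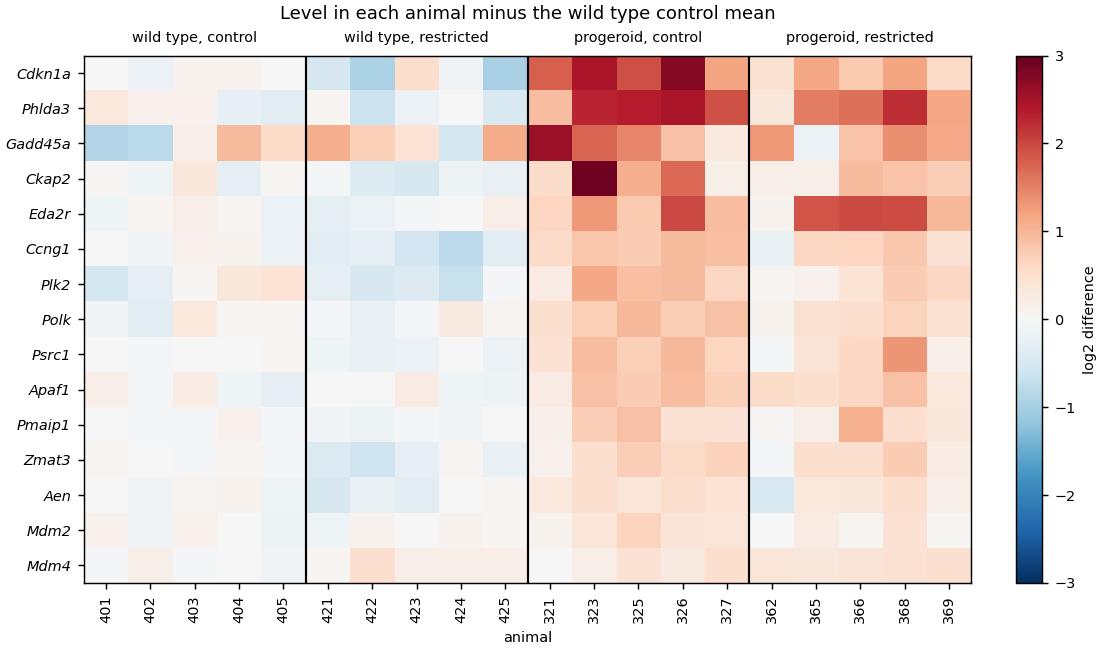
Colour map of the log2 level in each animal (columns, by group) minus the mean of the wild type control group, for the 15 p53 target genes (rows) that rose in progeroid livers on the control diet; red is higher and blue lower. Animal 321 is the lowest of the 5 progeroid control columns in 12 of 15 rows, and animal 362 the lowest of the 5 progeroid restricted columns in 11 of 15.

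Other genes of the pathway were counted in the same comparisons, where 6.7% of all genes rose and 4.32% fell on the control diet and 11.8% and 5.44% on restriction. Of 21 measured upstream kinases and partners, 2 rose and 1 fell with the genotype on the control diet, with a median of -0.03, and 3 rose and 3 fell on restriction. The damage mediator Mdc1 rose by 0.42 ± 0.09 and the kinase Atr by 0.37 ± 0.10 on the control diet, while the kinase Hipk2 fell by 0.49 ± 0.08. Trp53bp1, which binds damaged chromatin, was higher in progeroid mice by 0.81 ± 0.11 on restriction, and it and Nbn were the 2 members of that list whose diet effects differed between genotypes (0.68 ± 0.15 and 0.68 ± 0.16, adjusted p = 0.0315 and 0.0365). Of 28 further p53 targets that are not among the 33, 1 rose and 2 fell on the control diet (median 0.00) and 8 rose and 2 fell on restriction (median 0.04), which on the control diet is 3.57% higher and 7.14% lower and on restriction 28.6% and 7.14%. Pml, which organises nuclear bodies, rose by 0.53 ± 0.14 on the control diet, and the cell death gene Bid was higher by 0.72 ± 0.13 on restriction.

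Cell cycle genes that p21 is known to hold down through the DREAM complex gave 0 of 24 higher and 0 lower on the control diet in limma, with a median of 0.09 and 6 at an unadjusted p under 0.05, beside 24.3% of all genes at that p. On restriction 4 rose and 1 fell (16.7% and 4.17%, beside 11.8% and 5.44% of all genes), with Ccne2 (1.57 ± 0.25) and Cdk1 (1.21 ± 0.23) higher and Rrm2 lower (-1.18 ± 0.24). Genes of other stress inputs that share targets with the list were counted in the same way for the diet effect, for which 6.94% of all genes rose and 5.07% fell in progeroid livers and 9.92% and 12.6% in wild type livers. Of 12 glucocorticoid-induced genes 4 rose and 0 fell with restriction in progeroid livers, among them Per1 (2.37 ± 0.41) and Fkbp5 (1.51 ± 0.33), and 4 rose and 0 fell in wild type livers. Of 12 targets of the integrated stress response 2 rose in progeroid livers, Trib3 (1.31 ± 0.28) and Vldlr (1.14 ± 0.26), and in wild type livers 1 rose and 3 fell. Their part in the rise of Ddit4 was not tested.

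Markers of other cells were counted beside the same shares of all genes (6.7% higher on the control diet and 11.8% on restriction). Of 8 Kupffer cell and macrophage markers 2 rose in progeroid livers on the control diet and 6 on restriction, and their mean level ran from 7.70 to 8.39 in progeroid control mice, from 7.48 to 7.93 in wild type control mice, from 7.90 to 8.66 in restricted progeroid mice and from 7.05 to 7.66 in restricted wild type mice. Of 6 neutrophil and monocyte markers S100a8 and S100a9 rose on both diets, and the mean levels of the 6 were 4.44 to 4.62 in progeroid and 3.91 to 4.06 in wild type control mice. The median difference of the 6 was only 0.09 on the control diet and 0.03 on restriction, with 4 and 3 of them positive. Of 7 stellate cell markers 2 rose on each diet. Of 6 hepatocyte markers 1 fell on the control diet, Hnf4a (-0.37 ± 0.07), and 2 on restriction, Hnf4a (-0.27 ± 0.07) and Serpina1a (-0.28 ± 0.06), and their mean level ran from 13.47 to 13.55 in progeroid and from 13.55 to 13.61 in wild type control mice. Of 6 endothelial markers 0 passed in limma on the control diet, with 2 at an unadjusted p under 0.05, and Pecam1 rose on restriction (0.38 ± 0.11). Of 3 erythroid markers 0 passed on either diet, with 0 and 1 at an unadjusted p under 0.05. Of 9 markers of T, B and NK cells 0 passed in limma on either diet, with 2 and 1 at an unadjusted p under 0.05, and 0 of 4 cholangiocyte markers passed, with 0 and 0. The difference of the 3′ and 5′ Gapdh control probe sets, a measure of RNA integrity, was 0.93 ± 0.28 (SD, n = 5) with progeroid mice and 0.66 ± 0.06 with wild type mice on the control diet, and with it as a covariate 12 members rose on the control diet, where the genes called in either direction went from 1883 to 1280. The part of these cells and of RNA integrity in the changes of the p53 targets was not tested.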

How the data were processed

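Liver RNA from 20 mice, 5 in each of 4 groups named in the sample titles, was hybridised to Affymetrix arrays, 1 per animal. The deposited values are log2 expression made by the authors with RMA, per the submitters' processing notes. RMA sets all arrays to the same distribution, which removes any overall shift between groups. Its version is not given in the sources used here. The table holds 45141 probe sets, of which 104 controls were left out, and no filter on low values was applied. The number of arrays limits the precision.

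Every gene was modelled by its 4 group means over the 20 arrays, using limma 3.58.1 (R 4.3.3), and 6 contrasts of these means were tested. The Benjamini-Hochberg adjustment was made per contrast, across 17097 genes or across all probe sets. Errors are moderated standard errors (SE) unless marked SD. The members and gene lists were chosen with earlier results of these data known, so the counts are descriptions. All measured members are reported, and other genes are named from the lists, at most 3 per list and comparison, by smallest p. Alternatives covered scaling, probe set choice, a filter at a level of 5, variance, array weights, RNA integrity, the threshold and each animal left out.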

Additional observations from a re-analysis of the deposited data

Results flagged for a closer look

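In each of 116 sets (29 members in 4 groups of 5 animals) the highest and lowest animals were compared with the rest by Dixon's test, and 6 animals stood apart. Chance flags about 1 in 20 such sets. Btg2 was 8.71 in wild type restricted animal 422 with the nearest other at 7.87, and 8.65 in progeroid restricted animal 366 with the nearest other at 9.34. Plk3 was 6.75 in wild type restricted animal 423, below the next at 7.68. Ddit4 was 6.39 in wild type control animal 403, below the next at 7.34. Tnfrsf10b, which is near background, was 3.64 in wild type restricted animal 424 and 3.71 in progeroid control animal 323.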

How the results depend on the processing

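No paired analysis was possible because the groups share no animal numbers and the sample titles name no litter. Any likeness between littermates was therefore not modelled. The 51 calls of a member in a comparison kept their direction under every alternative run, and 24 kept their call under all of them, with 35 kept whichever animal was left out. At an adjusted p under 0.01 the members higher with genotype on the control diet numbered 7 (969 of all genes called), and 1670 genes were called on restriction. At that threshold the diet effect had 0 members higher in progeroid livers (874 genes called) and 1 higher and 1 lower in wild type livers (2199 genes), the difference of diet effects had 38 genes, and restricted progeroid against control wild type had 6 members and 2526 genes. In progeroid livers 2 members rose with diet after median centring, without dim probe sets or with array weights (the second was Rrm2b), and 2 fell with array weights (the second was Ckap2). The genes called for the difference of diet effects were 137 with the RNA integrity covariate and 363 with array weights. Without animals 321 and 362 the diet effect in progeroid livers had 1257 genes. The filter on dim probe sets kept genes with at least 1 group mean of 5 or more. It left out Pmaip1, Eda2r, Ckap2, Dram1, Gtse1 and Tnfrsf10b untested, and kept Phlda3 and Psrc1 only through their progeroid groups. With it, 12 members rose with genotype on the control diet and 13 on restriction (1861 and 2711 genes called in either direction). It therefore does not check the calls of these dim members. Leaving out 1 animal in turn gave 11 to 15 members higher with genotype on the control diet and 12 to 17 on restriction. The genes called in either direction were then 1510 to 1941 and 2258 to 3169. For the diet effect it gave 1 to 2 higher and 1 to 2 lower in progeroid livers, 1 to 3 higher and 2 to 3 lower in wild type livers, and for restricted progeroid against control wild type 10 to 14. The genes called ranged from 1433 to 2074 for the diet effect in progeroid livers and from 3156 to 3966 in wild type livers. They ranged from 103 to 490 for the difference of diet effects and from 3627 to 4472 for restricted progeroid against control wild type. For Psrc1 the mean over probe sets ended the calls (0.23 on the control diet). Mdm4 without suffixed probe sets gave 0.08.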
